A study of Mus musculus with 2 samples.

Results

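The tricarboxylic acid (TCA) cycle and the routes by which pyruvate, glutamate and malate reach it were described through 31 genes, chosen by name, in single-cell RNA sequencing of mouse CD8+ T cells cultured with little or with ample glucose. All 31 symbols were found among the 27998 genes listed in the files, and 29 of them were among the 6667 genes that reached at least 10 CPM (counts per 1000000 UMIs of a library) in either library. A UMI, or unique molecular identifier, tags 1 captured RNA molecule. The 2 members below that level were Pcx and Idh1.

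The cells came from spleens and lymph nodes of OT-I mice aged 8 to 12 weeks, whose transgenic T cell receptor recognises the ovalbumin peptide SIINFEKL. They were activated with that peptide for 48 h in medium with 4 mM glutamine and 100 U/ml interleukin-2, then moved to expansion medium with the same interleukin-2 level. For the next 20 h the cells called TGR (transient glucose restriction) had 1 mM glucose and the control cells 11 mM glucose. The sample descriptions give 3 days of growth instead, and neither source says whether TGR cells were returned to ample glucose before capture or how many mice a library was made from.

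Each condition is 1 library, so no difference between the conditions could be tested and none has a replicate check. Intervals are exact and at the 95% level, cover counting error only, and describe these libraries. The TGR library had 2546 cells after filtering, with a median of 6265.5 UMIs, and the control library had 3127 cells, with a median of 4030 UMIs. In the TGR library 94.8% of cells had a UMI of Cd8a or Cd8b1, the genes of the CD8 co-receptor, and in the control library 90.6% did. Of 20 markers of other cell types, 7 were at 0 in both libraries, and the 20 together came to 14.3 CPM in TGR and 20.98 CPM in control, most of it Cd79b. Cells called G1 made up 56.6% of TGR cells and 10.8% of control cells, and cells called G2/M 34.3% of TGR cells and 77.9% of control cells. Ribosomal protein genes took 50.1% of the UMIs in TGR and 40.4% in control, which lowers the CPM of every other gene in the TGR library. The part of these differences in the values below was not tested, beyond the ratios given within phases and under other scalings.

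The TCA cycle oxidises acetyl groups in the mitochondrial matrix, yields NADH and FADH2 for the respiratory chain, and supplies citrate and oxaloacetate for the synthesis of lipids, aspartate and nucleotides. Glucose carbon enters as pyruvate, which the mitochondrial pyruvate carrier imports and pyruvate dehydrogenase turns into acetyl-CoA. Glutamine carbon enters as glutamate, which is made into 2-oxoglutarate by glutamate dehydrogenase or by transaminases. Proliferating T cells draw on both routes.

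Most of the list took a smaller share of the transcriptome in TGR cells than in control cells, with 24 of the 29 scored members below a ratio of 1. Ratios below 1 were common over all scored genes too, whose median log2 ratio was −0.16, and 22 of the 29 members lay below that median. Summed over the 31 genes, 28398 UMIs were counted in TGR and 30713 in control, which is 1442 CPM (1425 to 1459) in TGR and 2085 CPM (2062 to 2108) in control, 1.45-fold lower in TGR (interval 1.42 to 1.47). Of the 29 scored members 13 were at least 1.5-fold lower in TGR, where 21.8% of all scored genes were, and 0 were at least 1.5-fold higher, where 9.33% of all scored genes were. Restricted to genes with 50 CPM or more in a library, 10 of 18 members were at least 1.5-fold lower, against 34.2% of such genes, and 0 at least 1.5-fold higher, against 7.28%. The median log2 ratio of TGR over control was −0.53 over the scored members and −0.16 over all scored genes. The 13 were Sdhb, Me2, Idh3a, Fh1, Suclg1, Got2, Sdhc, Mdh2, Mpc1, Sdha, Mpc2, Mdh1 and Pdk3. The members with a ratio above 1 were Idh3b, Glud1, Pdk1, Suclg2 and Cs, all of them short of 1.5-fold. Idh3a, Sdhb, Sdhc, Fh1, Got2 and Me2, 6 of the 13, stayed past 1.5-fold under every alternative processing that gave a value except UMIs per cell.

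**Figure D1:**
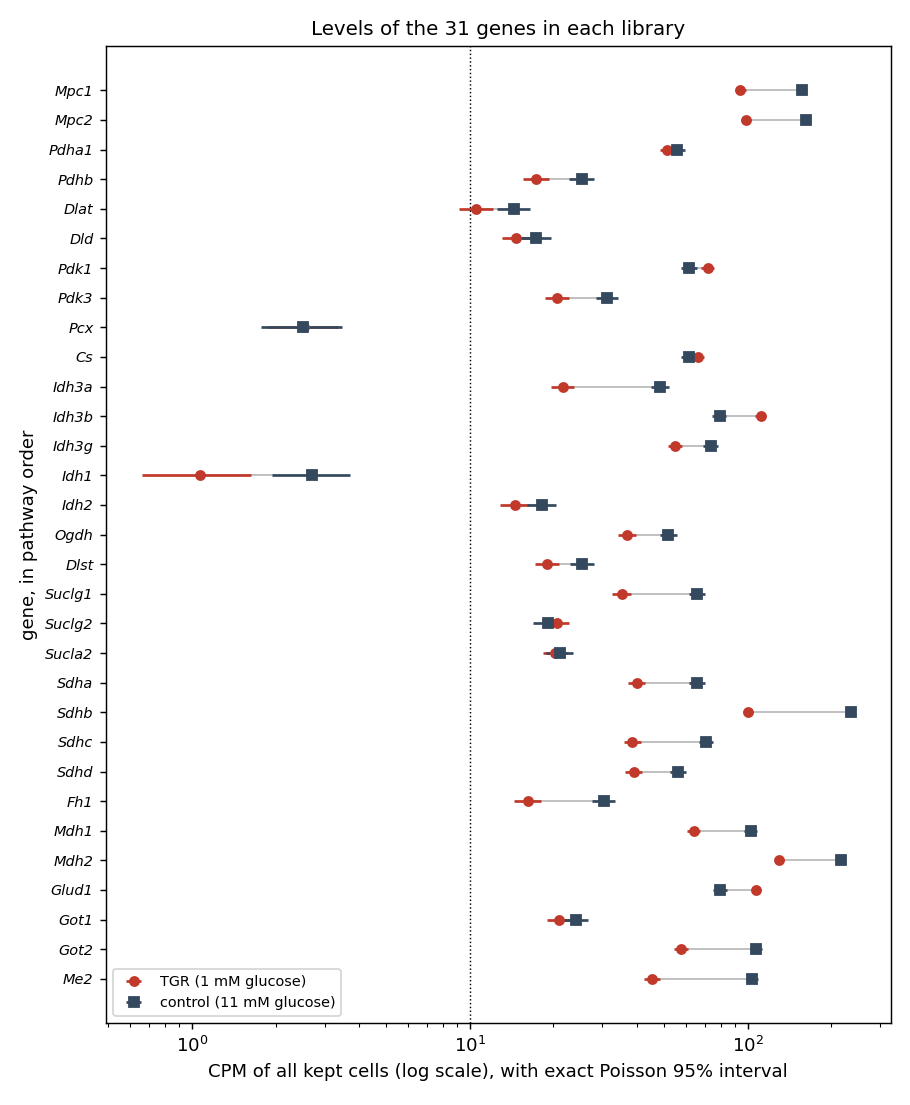
Level of each of the 31 genes in the TGR library (red circles) and in the control library (dark squares), in CPM on a log axis, with the exact Poisson 95% interval of its UMIs; the dotted line marks 10 CPM. Sdhb, Me2 and Idh3a show wide gaps with control to the right, Idh3b and Glud1 have TGR to the right, and the Pcx points (2.54 CPM in TGR and 2.51 CPM in control) lie on top of each other.

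These shares stand beside a different picture per cell. TGR cells held 11.2 UMIs of the list on average and control cells 9.82, a ratio of 1.14, while the ratio for all UMIs per cell was 1.64. Counted as UMIs per cell, 0 scored members were at least 1.5-fold lower, against 3.07% of all scored genes, and 7 were at least 1.5-fold higher, against 48.2% of all scored genes. More RNA per TGR cell and deeper sequencing of the TGR library cannot be told apart, so CPM is used for the ratios that follow, and a member lower by CPM is not thereby lower per cell. Of the 24 scored members with a ratio below 1 by CPM, 14 had a ratio above 1 per cell. With totals that leave out ribosomal protein and mitochondrial genes, 7 members were at least 1.5-fold lower (11.8% of all scored genes) and 2, Idh3b and Glud1, at least 1.5-fold higher (19.4%). That scaling raised the log2 ratio of a typical gene by 0.26 and left 7 of the 13 past the limit.

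**Figure D2:**
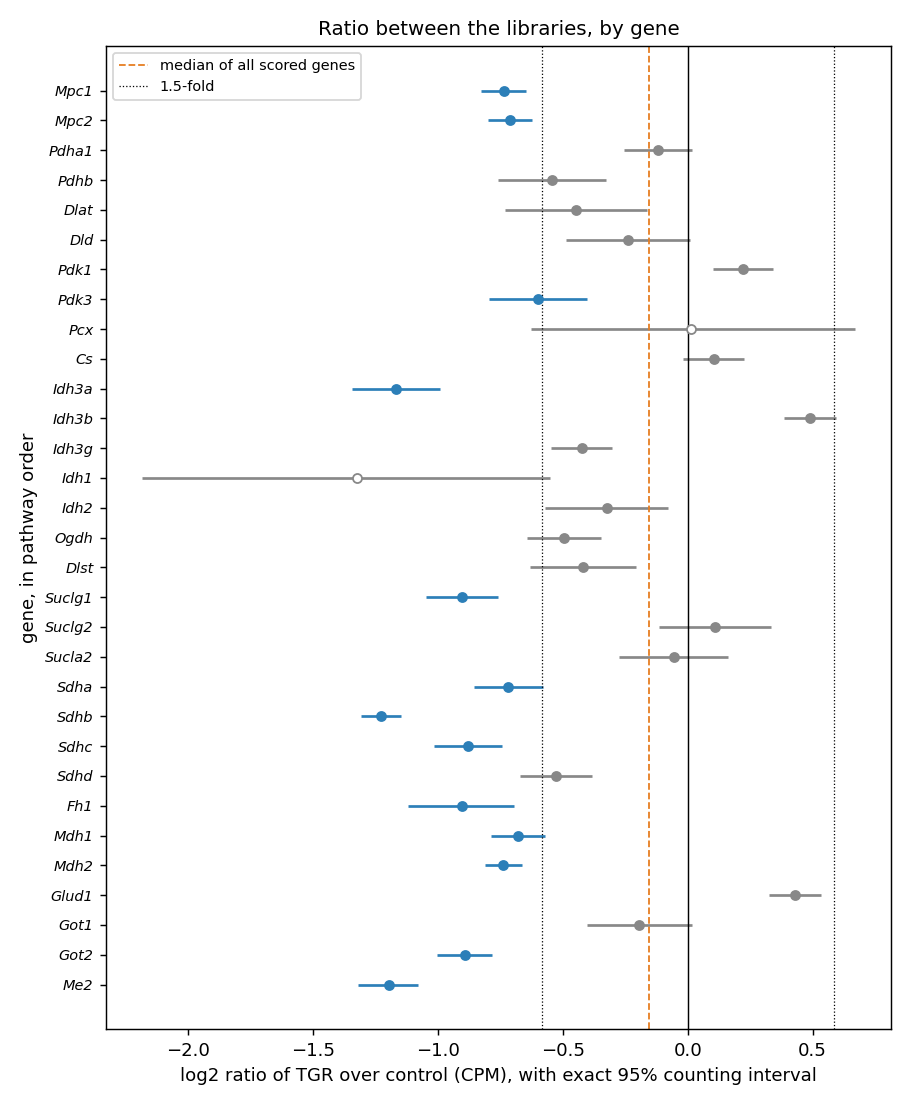
Log2 ratio of TGR over control by CPM for each of the 31 genes, with the exact Clopper-Pearson 95% interval of the split of its UMIs between the libraries; blue marks members at least 1.5-fold lower, open circles the 2 genes that were not scored, dotted lines the 1.5-fold limits and the dashed line the median of all scored genes (−0.16). The 13 blue members lie left of the lower limit, Idh3b (ratio 1.40) and Glud1 (1.35) lie farthest right and short of the upper one.

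Transcripts of both pyruvate carrier subunits were lower in TGR by CPM. Mpc1 and Mpc2 encode the paired subunits of the mitochondrial pyruvate carrier. Mpc1 had 93.98 CPM in TGR and 157 CPM in control, 1.67-fold lower in TGR (interval 1.57 to 1.77). Mpc2 had 98.8 CPM in TGR and 162 CPM in control, 1.64-fold lower (1.54 to 1.74). The subunits kept a like proportion: there were 0.952 Mpc1 UMIs per Mpc2 UMI in TGR (0.893 to 1.01) and 0.969 in control (0.915 to 1.03). Per 100 cells, however, Mpc1 had 72.7 UMIs in TGR and 73.8 in control, and Mpc2 76.4 in TGR and 76.1 in control, so the lower CPM of this pair went with nearly equal UMIs per cell. With totals free of ribosomal protein and mitochondrial genes, both were short of 1.5-fold, at log2 ratios of −0.48 for Mpc1 and −0.45 for Mpc2.

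The pyruvate dehydrogenase complex, which converts pyruvate to acetyl-CoA, had no subunit past 1.5-fold. Its catalytic E1 alpha subunit gene Pdha1 had 51.4 CPM in TGR and 55.8 CPM in control, a log2 ratio of −0.12 with an interval of the ratio from 0.839 to 1.01. The E1 beta subunit gene Pdhb had 17.4 CPM in TGR and 25.3 CPM in control, a log2 ratio of −0.54. Dlat, the E2 acetyltransferase, had 10.6 CPM in TGR and 14.4 CPM in control, and Dld, the E3 dehydrogenase that oxoglutarate dehydrogenase also uses, had 14.7 CPM in TGR and 17.3 CPM in control. The 4 genes summed to 93.98 CPM in TGR and 113 CPM in control, 1.20-fold lower (1.12 to 1.28). Within cells called G1 the sum had the other direction, with a log2 ratio of 0.17, against −0.34 in S and −0.33 in G2/M. Pdha1 in G1 cells had 54.9 CPM in TGR and 42.8 CPM in control, on 534 TGR and 58 control UMIs, and the interval of its log2 ratio, −0.04 to 0.78, held 0.

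The kinases that phosphorylate and switch off pyruvate dehydrogenase differed from each other. Pdk1 had 71.8 CPM in TGR and 61.6 CPM in control, a ratio of 1.17 (1.07 to 1.27). By phase the Pdk1 ratio was 1.14 in G1, 1.06 in S and 1.06 in G2/M, each with an interval that held 1. Pdk3 had 20.6 CPM in TGR and 31.2 CPM in control, 1.51-fold lower (1.32 to 1.74), just past the limit and short of it under 8 of the 14 alternatives with a value, UMIs per cell apart. There were 3.49 Pdk1 UMIs per Pdk3 UMI in TGR (3.12 to 3.90) and 1.97 in control (1.76 to 2.21), and the intervals overlapped within S. Pdk1 per Pdha1 was 1.40 in TGR (1.29 to 1.52) and 1.10 in control (1.00 to 1.22). Within G1 it was 1.44 in TGR (1.29 to 1.62) and 1.62 in control (1.16 to 2.29). Cells called S had 1.41 in TGR (1.07 to 1.88) and 1.16 in control (0.842 to 1.59). Cells called G2/M had 1.33 in TGR (1.1665 to 1.52) and 1.05 in control (0.945 to 1.1694). The Pdk1 per Pdha1 intervals thus overlapped in each phase, though barely in G2/M.

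Pyruvate can also enter as oxaloacetate through pyruvate carboxylase, encoded by Pcx, and malate can leave as pyruvate through the mitochondrial malic enzyme Me2. Pcx had 50 UMIs in TGR and 37 in control, which is 2.54 CPM in TGR and 2.51 CPM in control, with an interval of the ratio from 0.648 to 1.59 that is too wide at this depth to show a moderate difference. Me2 had 889 UMIs in TGR and 1525 in control, which is 45.1 CPM in TGR and 104 CPM in control, 2.29-fold lower in TGR (2.11 to 2.49). It was among the few members that were lower per cell as well, with 34.9 UMIs per 100 cells in TGR and 48.8 in control. Me2 was 2.12-fold lower within G1, 1.52-fold within S and 2.32-fold within G2/M. Pcx was thus too sparse to compare, and Me2 was one of the members with the widest gap.

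Glutamate entry split by enzyme. Glud1 encodes glutamate dehydrogenase, which releases ammonium to form 2-oxoglutarate, and lies on chromosome 14 from 34310727 to 34345265 of GRCm38. It had 2108 UMIs in TGR and 1170 in control, which is 107 CPM in TGR and 79.4 CPM in control, a ratio of 1.35 (1.25 to 1.45); its log2 ratio was 0.43, and 0.69 with totals free of ribosomal protein and mitochondrial genes. Got2, the mitochondrial aspartate aminotransferase, had 57.8 CPM in TGR and 107 CPM in control, 1.86-fold lower (1.72 to 2.01). Got1, its cytosolic counterpart in the malate-aspartate shuttle, had 21.02 CPM in TGR and 24.0 CPM in control, a ratio of 0.875 (0.757 to 1.01). There were thus 1.85 Glud1 UMIs per Got2 UMI in TGR (1.72 to 1.99) and 0.740 in control (0.686 to 0.799), with TGR above control in G1 (1.75 in TGR and 0.934 in control), S (1.81 in TGR and 0.730 in control) and G2/M (1.99 in TGR and 0.720 in control). Within G1 the Glud1 ratio itself was 1.08 with an interval of the log2 ratio from −0.15 to 0.39, so its higher level in TGR was not detectable among those cells at this depth.

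At the head of the cycle, Cs, the citrate synthase that joins acetyl-CoA to oxaloacetate, had 66.2 CPM in TGR and 61.6 CPM in control. The ratio of 1.07 had an interval of 0.986 to 1.17. Cs stayed between a log2 ratio of 0.05 and 0.19 in the 3 phases, and per 100 cells it had 51.2 UMIs in TGR and 29.01 in control. Among cells with 1500 to under 4000 UMIs its log2 ratio was −0.25, with an interval from −0.68 to 0.15 that held 0.

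The NAD-dependent isocitrate dehydrogenase, which makes 2-oxoglutarate and NADH, showed the widest divergence among subunits of 1 enzyme in the list. It is built from a catalytic alpha subunit, encoded by Idh3a, and the beta and gamma subunits encoded by Idh3b and Idh3g. Idh3a had 425 UMIs in TGR and 714 in control, which is 21.6 CPM in TGR and 48.5 CPM in control, 2.25-fold lower (1.99 to 2.54). Idh3b had 2192 UMIs in TGR and 1167 in control, which is 111 CPM in TGR and 79.2 CPM in control, a ratio of 1.40 (1.31 to 1.51). Idh3g had 54.8 CPM in TGR and 73.5 CPM in control, a ratio of 0.745 (0.684 to 0.811). Over all cells alpha was below and beta above control by CPM, with gamma between them. Within G1 the Idh3b ratio was 1.18, with an interval of the log2 ratio from −0.03 to 0.51 that held 0.

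For each Idh3a UMI there were 5.16 Idh3b UMIs in TGR (4.65 to 5.74) and 1.63 in control (1.49 to 1.80), a contrast that needs no scaling between the libraries. In cells called G1 it was 5.07 in TGR (4.37 to 5.90) and 2.05 in control (1.5004 to 2.82), in S 4.00 in TGR (2.89 to 5.63) and 1.59 in control (1.17 to 2.19), and in G2/M 5.60 in TGR (4.74 to 6.64) and 1.58 in control (1.42 to 1.75). The TGR and control intervals did not meet in any phase. They also did not meet among cells with 1500 to under 4000 UMIs, where the ratio was 4.30 in TGR (2.99 to 6.32) and 2 in control (1.67 to 2.41). Because the subunits sum to 188 CPM in TGR and 201 CPM in control, a log2 ratio of −0.10, the summed value does not show this divergence. Idh3a lies on chromosome 9 from 54586334 to 54604661 on the plus strand, and Idh3b on the minus strand of chromosome 2, between 130279309 and 130284547 (GRCm38).

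The end of Idh3b overlaps 5 bases of the neighbouring gene Nop56, a nucleolar protein gene on the other strand. The files do not state whether counting used strand. Nop56 had 1552 UMIs in TGR and 2460 in control. Whether any of its reads were counted for Idh3b was not tested. The other genes that overlap a member and are listed in the files had at most 15 UMIs in either library.

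The NADP-dependent isocitrate dehydrogenases were low in these cells. Idh2, the mitochondrial form, had 14.5 CPM in TGR and 18.2 CPM in control, a ratio of 0.798 (0.673 to 0.946). The Idh2 ratio was 0.667 among cells with 1500 to under 4000 UMIs (0.394 to 1.07). It was 0.992 among those with 4000 to under 7000 (0.741 to 1.33) and 0.940 among those with 7000 or more (0.706 to 1.26). Each of these intervals held 1. Idh1, the cytosolic form, had 21 UMIs in TGR and 40 in control, which is 1.07 CPM in TGR and 2.72 CPM in control and below the level at which genes were scored. Its 2.51-fold lower level had a wide interval, 1.47 to 4.55.

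The oxoglutarate dehydrogenase complex turns 2-oxoglutarate into succinyl-CoA. Ogdh, its E1 subunit, had 36.8 CPM in TGR and 51.8 CPM in control, a log2 ratio of −0.49. Dlst, its E2 subunit, had 374 UMIs in each library, which is 19.0 CPM in TGR and 25.4 CPM in control, a log2 ratio of −0.42. No subunit of this complex passed 1.5-fold, and with the shared Dld the 3 genes summed to 70.4 CPM in TGR and 94.5 CPM in control.

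Succinyl-CoA ligase has a common alpha subunit, encoded by Suclg1, and a beta subunit that is either GDP-forming (Suclg2) or ADP-forming (Sucla2). Suclg1 had 35.2 CPM in TGR and 65.8 CPM in control, 1.87-fold lower (1.69 to 2.06). Suclg2 had 20.6 CPM in TGR and 19.1 CPM in control, and Sucla2 had 20.3 CPM in TGR and 21.1 CPM in control, with intervals of the ratio that held 1 for both. Over all cells the alpha subunit was thus set apart from both beta subunits. Suclg2 per Suclg1 was 0.584 in TGR (0.516 to 0.662) and 0.290 in control (0.253 to 0.332). Sucla2 per Suclg1 was 0.577 in TGR (0.509 to 0.654) and 0.321 in control (0.282 to 0.365). Both had overlapping intervals within G1 and among cells with 1500 to under 4000 UMIs. Those of Sucla2 per Suclg1 also overlapped, barely, within S, and among cells with 4000 to under 7000 UMIs. In G1 cells Suclg1 was 1.43-fold lower (log2 ratio −0.51, interval −0.87 to −0.14) and so short of the limit, against 2.32-fold in S and 2.11-fold in G2/M.

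Succinate dehydrogenase, which oxidises succinate to fumarate and is also complex II of the respiratory chain, was the step with the lowest summed ratio among those with several genes. Its 4 subunits came to 218 CPM in TGR and 428 CPM in control, 1.96-fold lower in TGR (1.89 to 2.04). Sdhb, the iron-sulfur subunit, on chromosome 4 from 140961203 to 140979193 of GRCm38, had 1977 UMIs in TGR and 3465 in control, a 2.34-fold lower level (2.22 to 2.48). Sdhc, a membrane anchor, had 38.5 CPM in TGR and 70.8 CPM in control, 1.84-fold lower (1.67 to 2.02). Sdha, the flavoprotein subunit, had 40.0 CPM in TGR and 65.7 CPM in control, 1.64-fold lower (1.495 to 1.81), and 1.30-fold lower within G1. Sdhd, the second membrane anchor, had 38.9 CPM in TGR and 56.1 CPM in control, 1.44-fold lower (1.31 to 1.59). All 4 were thus below control by CPM, in the order Sdhb, Sdhc, Sdha and Sdhd, and after Sdhb the intervals of neighbours in that order overlapped.

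Over all cells the subunits were not lower by the same factor. For each Sdhd UMI there were 2.58 Sdhb UMIs in TGR (2.37 to 2.81) and 4.19 in control (3.88 to 4.53). Within G1 it was 2.58 in TGR (2.29 to 2.90) and 3.53 in control (2.76 to 4.56), and within S 2.58 in TGR (1.95 to 3.44) and 3.66 in control (2.91 to 4.65), with intervals that overlapped in both phases. Within G2/M it was 2.58 in TGR (2.25 to 2.95) and 4.32 in control (3.96 to 4.71), and the intervals did not meet. Sdhb per Sdha was 2.51 in TGR (2.31 to 2.73) and 3.58 in control (3.33 to 3.85). Its intervals overlapped within S, and among cells with 1500 to under 4000 and with 4000 to under 7000 UMIs. Sdhb per Sdhc was 2.61 in TGR and 3.32 in control over all cells, and nearer to level within G1 (2.74 in TGR and 3.02 in control) and S (3.10 in TGR and 3.22 in control). The intervals of Sdhb per Sdhc overlapped within G1 and S and in the same bands of UMIs per cell. Per 100 cells, Sdhb was lower too, with 77.7 UMIs in TGR and 111 in control, while Sdha had 30.9 in TGR and 30.96 in control, and Sdhd 30.1 in TGR and 26.4 in control.

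Fumarase and the malate dehydrogenases close the cycle. Fh1, the fumarase gene, had 319 UMIs in TGR and 447 in control, which is 16.2 CPM in TGR and 30.3 CPM in control, 1.87-fold lower (1.62 to 2.17). Mdh2, the mitochondrial malate dehydrogenase, had 130 CPM in TGR and 217 CPM in control, 1.67-fold lower (1.58 to 1.76). Mdh1, the cytosolic form of the malate-aspartate shuttle, had 64.0 CPM in TGR and 102 CPM in control, 1.60-fold lower (1.49 to 1.73). Over all cells there were 0.492 Mdh1 UMIs per Mdh2 UMI in TGR (0.460 to 0.527) and 0.473 in control (0.444 to 0.503), with overlapping intervals. Within G1 the proportion was 0.428 in TGR (0.387 to 0.473) and 0.470 in control (0.380 to 0.579), and within G2/M, where the intervals did not meet, 0.573 in TGR (0.517 to 0.635) and 0.480 in control (0.448 to 0.514). Per 100 cells they had nearly equal UMIs, 101 in TGR and 102 in control for Mdh2 and 49.5 in TGR and 48.3 in control for Mdh1.

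**Figure D3:**
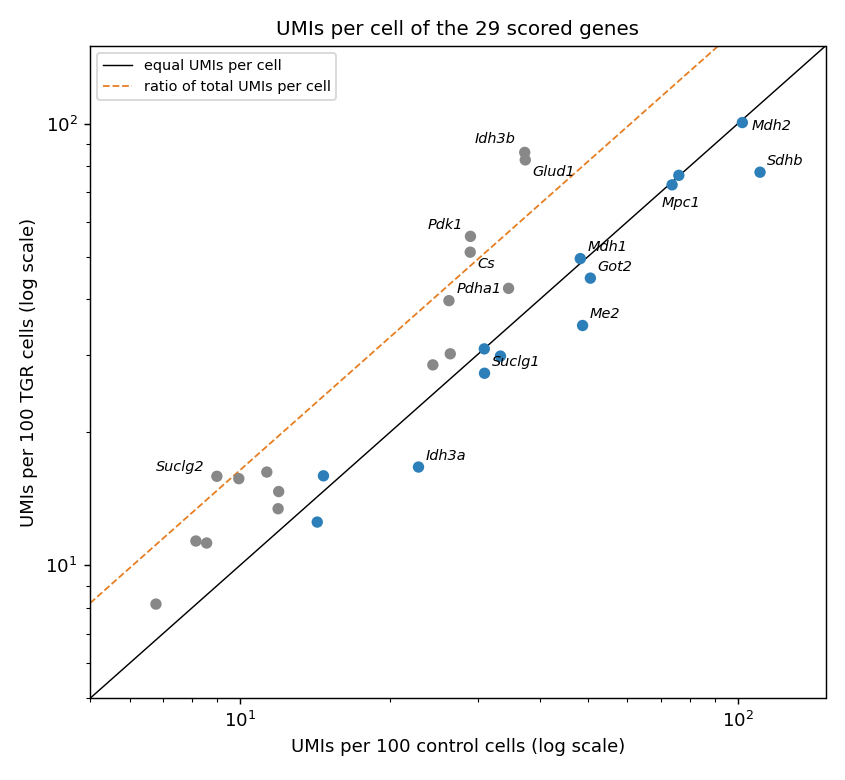
Mean UMIs per 100 cells of the 29 scored members in TGR cells (vertical axis) and control cells (horizontal axis), both on log scales; the solid line marks equal values, the dashed line the ratio of all UMIs per cell (1.64), and blue the members at least 1.5-fold lower by CPM. Sdhb, Me2 and Idh3a lie below the solid line, Mpc1, Mdh1 and Mdh2 lie along it, and Idh3b and Glud1 lie farthest above the dashed line.

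Seen by direction on both scales, the 29 scored members were of 4 kinds. The per-cell ratio of a gene is in effect its CPM ratio times the 1.64 for all UMIs. The kinds are therefore ranges of a single ranking, and the second scale adds no separate evidence. Over all scored genes the median log2 ratio per cell was 0.56, so a per-cell ratio above 1 was common. Lower in TGR by CPM, and with an interval of the per-cell ratio below 1, were 6 members: Sdhb at 0.701 (0.663 to 0.741), Me2 at 0.716 (0.658 to 0.778), Idh3a at 0.731 (0.647 to 0.826), Suclg1 at 0.878, Got2 at 0.884 and Sdhc at 0.893. A second kind of 7 members, Sdha, Fh1, Mdh1, Mdh2, Pdk3, Mpc1 and Mpc2, was at least 1.5-fold lower by CPM while the per-cell intervals held 1. The most numerous kind had 11 members, which were below 1 by CPM, short of 1.5-fold, and above 1 per cell. Their per-cell ratios were 1.14 for Sdhd, 1.17 for Ogdh, 1.22 for Idh3g, 1.23 for Dlst, 1.31 for Idh2, 1.39 for Dld, 1.44 for Got1, 1.51 for Pdha1 and 1.58 for Sucla2, with intervals above 1, and 1.13 for Pdhb and 1.20 for Dlat, with intervals that held 1. The last 5, Idh3b (2.31), Glud1 (2.21), Pdk1 (1.91), Suclg2 (1.77) and Cs (1.76), had per-cell ratios above the 1.64 for all UMIs, which is the same as a ratio above 1 by CPM.

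Cell cycle phase differed between the libraries, and the list was therefore set side by side within phases. Its summed level was 1447 CPM in TGR and 2011 CPM in control within G1, 1418 CPM in TGR and 2064 CPM in control within S, and 1441 CPM in TGR and 2096 CPM in control within G2/M. In each phase the list was lower in TGR, and within each library the intervals of the 3 phases overlapped. At least 1.5-fold lower were 13 of 29 members in G1 (21.8% of all scored genes), 14 in S (21.6%) and 13 in G2/M (21.9%), and 0 were at least 1.5-fold higher in any phase, where 11.5%, 14.6% and 11.0% of all scored genes were. Of the 13 members called over all cells, 11 were past the limit in G1, 12 in S and 12 in G2/M.

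**Figure D4:**
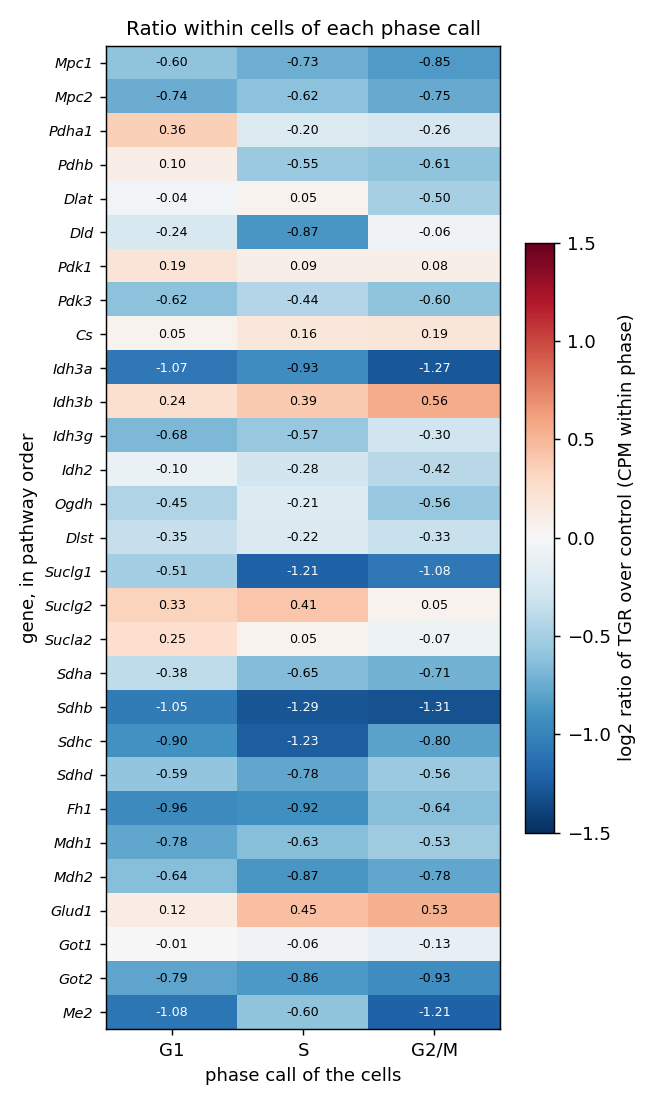
Log2 ratio of TGR over control by CPM of each scored member (rows) within cells called G1, S and G2/M (columns), printed in each cell and coloured from blue (lower in TGR) to red (higher in TGR). Sdhb is dark blue throughout (−1.05, −1.29 and −1.31), Idh3b and Glud1 are red throughout, and Pdha1 and Pdhb are red in G1 (0.36 and 0.10) and blue in S and G2/M.

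Single cells showed the same contrast after each was thinned to 1500 UMIs. TGR cells then had a median of 2 UMIs of the list (quartiles 1 and 3) and control cells a median of 3 (quartiles 2 and 4). No UMI of the list was found in 12.5% of TGR cells (11.2 to 13.8) and in 4.61% of control cells (3.89 to 5.42). The variance of the count was 1.06 times its mean in TGR and 1.05 times in control, close to the value of 1 that counting alone would give. Without thinning, the median was 9 UMIs in both TGR cells (quartiles 6 and 14) and control cells (quartiles 5 and 13).

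**Figure D5:**
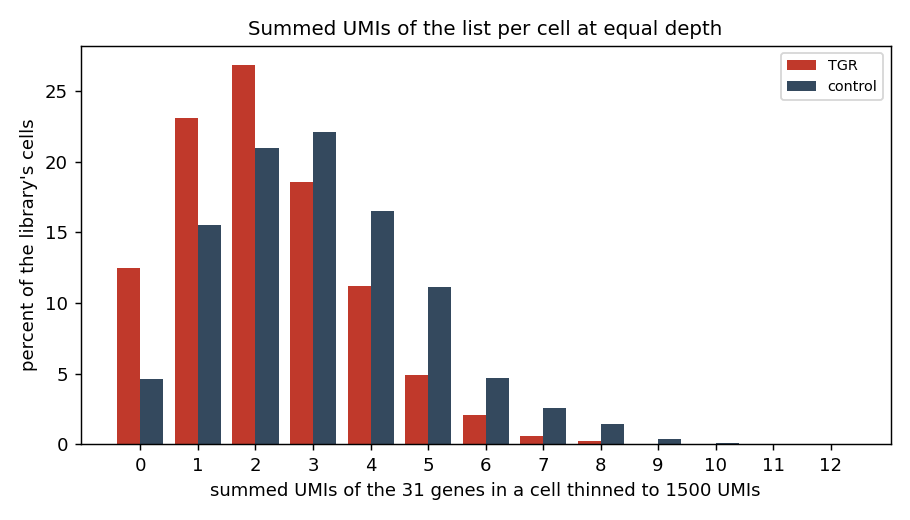
Share of cells (percent) by the number of UMIs of the list in a cell thinned to 1500 UMIs, for TGR cells and control cells. Both libraries have a single peak, at 2 UMIs in TGR and shifted to the right in control, with 12.5% of TGR cells and 4.61% of control cells at 0.

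By gene, the share of thinned cells with a UMI of Sdhb was 13.8% in TGR (12.5 to 15.2) and 29.02% in control (27.4 to 30.7), and without thinning 50.04% in TGR and 58.6% in control. For Idh3b it was 15.0% in TGR (13.6 to 16.4) and 11.7% in control (10.6 to 12.9), and 53.1% in TGR and 29.5% in control without thinning. For Me2 it was 6.44% in TGR (5.52 to 7.47) and 13.01% in control (11.8 to 14.3), and without thinning 27.3% in TGR and 35.2% in control. These genes are used by nearly every cell type, so no cell type that lacks them was at hand to give a background share.

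Promoter sequence was looked at for what members that were lower might share. RefSeq (GRCm38.p6) entries were found for 28 of the 31 genes, not for Idh3a, Sdhc and Me2. The 250 bases before each start were searched on both strands for an ETS core (CCGGAAG), an E-box (CACGTG), an NRF1 core (GCATGCGC) and a CCAAT box (CCAAT), the last chosen after the sequences were seen. The ETS core was in 4 of 28 members and in 20.0% of scored genes with an entry, the E-box in 2 of 28 and in 10.6%, and the NRF1 core in 3 of 28 and in 5.83%. The CCAAT box was in 17 of 28 members, 60.7%, and in 40.7% of scored genes. Among members it was in 7 of the 10 that were at least 1.5-fold lower and had an entry and in 10 of the other 18. A match is a run of letters and not a binding site.

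Windows free of annotated exons are shown for 3 members, Fh1 (1.87-fold lower), Cs (ratio 1.07, with an interval that held 1) and Pdk1 (ratio 1.17 over all cells). They lie at chr1:175625636-175625885 on the minus strand, chr10:128337477-128337726 and chr2:71872974-71873223, both on the plus strand. Each runs 5′ to 3′ up to the start, and capitals mark a CCAAT box on either strand. Fh1 and Cs each held 2, and none of the motifs searched was found in the Pdk1 window.
Fh1: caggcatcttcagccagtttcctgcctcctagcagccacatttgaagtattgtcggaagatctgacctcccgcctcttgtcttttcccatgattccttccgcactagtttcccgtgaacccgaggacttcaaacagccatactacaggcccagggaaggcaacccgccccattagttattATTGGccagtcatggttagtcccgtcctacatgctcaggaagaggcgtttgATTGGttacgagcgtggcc
Cs: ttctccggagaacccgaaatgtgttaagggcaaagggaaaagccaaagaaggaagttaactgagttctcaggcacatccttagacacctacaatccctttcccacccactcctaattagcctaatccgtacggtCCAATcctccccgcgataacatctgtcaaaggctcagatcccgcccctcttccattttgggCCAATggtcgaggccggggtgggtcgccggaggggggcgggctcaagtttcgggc
Pdk1: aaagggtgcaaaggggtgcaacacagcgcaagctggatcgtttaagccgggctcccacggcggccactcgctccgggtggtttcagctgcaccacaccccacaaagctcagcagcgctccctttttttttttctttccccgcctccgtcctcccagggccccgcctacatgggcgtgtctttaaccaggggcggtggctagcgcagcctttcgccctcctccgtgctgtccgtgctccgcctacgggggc

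Other genes of the same pathway, 34 in number and listed apart from the members, gave 15 scored genes. Of these 2 were at least 1.5-fold lower, against 21.8% of all scored genes, and 2 at least 1.5-fold higher, against 9.33%. The other 11 were neither. Their median log2 ratio over the 15 was 0.0026, against −0.16 over all scored genes. Counts this small do not set these genes apart from the rest. The lower ones both handle citrate. Slc25a1, the mitochondrial citrate exporter, had 10.5 CPM in TGR and 25.5 CPM in control, and Acly, which cleaves exported citrate to acetyl-CoA, had 24.6 CPM in TGR and 49.2 CPM in control. The higher ones were Pck2 and Acss1. Pck2, the mitochondrial phosphoenolpyruvate carboxykinase that draws on oxaloacetate, had 52.4 CPM in TGR and 11.7 CPM in control, a ratio of 4.46 (3.80 to 5.28). Acss1, a mitochondrial acetyl-CoA synthetase, had 10.6 CPM in TGR and 6.99 CPM in control, a ratio of 1.51 (1.19 to 1.93). Acss1 was thus just past the limit, and it was scored only through its level in TGR. The remaining highest ones were short of 1.5-fold. Slc1a5, a glutamine transporter of the plasma membrane, was level, with 58.7 CPM in TGR and 58.6 CPM in control. Slc25a11, the oxoglutarate carrier, had 41.9 CPM in TGR and 50.1 CPM in control, a ratio of 0.837 (0.757 to 0.926). Sdhaf1, an assembly factor of succinate dehydrogenase, had 41.7 CPM in TGR and 36.2 CPM in control, a ratio of 1.15 (1.03 to 1.29).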

How the data were processed

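The deposited matrices hold raw counts of UMIs per gene and cell barcode, which the authors left unnormalized as far as the values show. Libraries were made on the 10x Chromium platform (v2 chemistry) per the labels' protocols, and Cell Ranger 2.2, Seurat 3 and the genome build mm10 appear in the submitters' processing notes with no step given. Whether counting used strand is not given in the sources used here.

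Barcodes with at least 500 genes and under 10% mitochondrial UMIs were kept, which removed 2 of 2548 TGR and 209 of 3336 control barcodes; 11 barcode sequences occur in both libraries. Doublets were neither called nor removed. UMIs summed over the 2546 TGR and 3127 control cells (19696068 UMIs in TGR and 14730128 in control) were scaled to CPM. Log2 ratios used 0.5 UMI added per library, and a gene was scored where either library reached 10 CPM and called past 1.5-fold. With 1 library per condition there was no test. Intervals are exact Poisson (levels) or Clopper-Pearson (splits and shares), and PCR and capture error lie outside them. The interval of a ratio between genes within a library is the Clopper-Pearson interval of the split of their UMIs.

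Phases were called with scanpy 1.11.5 after thinning each cell to 1500 UMIs, which left out 91 control and 0 TGR cells. Tried in place of these choices were 2 other scalings (size factors from DESeq2 1.42.0 and TMM from edgeR 4.0.16, with no count test), totals without ribosomal protein and mitochondrial genes, UMIs per cell, other filters, thinning, bands of UMIs per cell and phases. Positions came from GENCODE and promoters from RefSeq, both on GRCm38, the assembly also called mm10. The ratio and interval code was checked on simulated data. All members are named, and of 34 other pathway genes every scored one past 1.5-fold and the 4 of highest mean CPM. Gpt2, also of that list, was added after its values were seen, and a further gene of the list as first drawn up is not reported here. The members and lists were chosen with earlier results of these data known.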

Additional observations from a re-analysis of the deposited data

How the results depend on the processing

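No paired analysis was possible because there was 1 library per condition, and for the same reason no replicate could be left out. Under every alternative but 2, 10 to 15 members were at least 1.5-fold lower and 0 higher. With totals free of ribosomal protein and mitochondrial genes 7 were lower and 2 higher (median log2 ratio −0.27, summed list −0.27). With mean UMIs per cell 0 were lower and 7 higher. Counts were out of 29 members, but out of 18 at 50 CPM or more (10 lower) and 31 with no filter (14 lower). Those 2 exceptions aside, the share of all genes at least 1.5-fold lower ran from 19.8% (TMM factors) to 34.2% (50 CPM or more). The share at least 1.5-fold higher ran from 7.28% (50 CPM or more) to 24.99% (no filter). On UMIs per cell the median became 0.19 and the summed list 0.18, and among called members Mdh1 (0.036), Pdk3 (0.12) and Mpc2 (0.0054) changed sign, since the scale alone moves every gene. The median was −0.69 among members with at least 50 CPM, where the median of all such genes was −0.35, a gap of −0.34 against −0.37 in the main setting. The log2 ratio of the summed list was −0.49 with TMM factors, −0.48 in thinned cells, −0.46 in cells with 1500 to under 4000 UMIs and −0.47 in cells called G1. Single members gave 483 values over 16 alternatives, of which 132 moved beyond their counting interval without counting as reversed, and 3 reversed, the called members above. With members short of 1.5-fold included, 35 of the 483 values changed sign: 14 on UMIs per cell, 4 with totals free of ribosomal protein and mitochondrial genes (Dld, Sucla2, Pdha1 and Got1) and 17 elsewhere, among them Sucla2, Pdha1 and Pdhb in cells called G1. Depth limits Pcx and Idh1, and the values within G1 (329 control cells) and S (232 TGR cells).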

Other observations

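Gpt2, the mitochondrial alanine aminotransferase, which forms 2-oxoglutarate from glutamate and pyruvate, was below the level at which genes were scored and was picked out after its values were seen. It had 102 UMIs in TGR and 12 in control, which is 5.18 CPM in TGR (4.22 to 6.29) and 0.815 CPM in control (0.421 to 1.42), a ratio of 6.17 with a counting interval of 3.49 to 12.7.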
